A study of Mus musculus with 4 samples.

Results

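The genes that carry glucose into the cell and break it down to pyruvate and lactate were compared, step by step, between PLZF+ and PLZF- γδ T cells of mouse fat. The list holds 39 genes, given by name and not by measured values: 4 glucose transporters, the isoenzymes of every glycolytic reaction, the enzymes that set the phosphofructokinase activator, lactate dehydrogenase and the lactate exporters, and the kinases and catalytic subunits at the pyruvate dehydrogenase gate. All 39 were found among the 46040 genes of the deposited tables, and symbols are written in capitals as the tables spell them. Of these, 28 had a mean normalized count of at least 10 over the 4 libraries and were tested, as were 9234 genes in all.

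PLZF is a transcription factor, the product of ZBTB16. Both subsets were sorted from epididymal adipose tissue of male PLZFGFP mice of strain C57Bl/6, aged 16 to 22 weeks, in which a green fluorescent protein reports PLZF. The PLZF+ subset has 2 libraries and the PLZF- subset has 2, each from a pool of 10 mice, so all 4 libraries share the reporter strain, and no treatment is recorded. All 4 column names also carry the letters SFD, which the labels do not explain. Libraries were made by SMART-seq2, which copies whole transcripts from small amounts of RNA. The table columns carry a code (A7 and B7 for PLZF+ cells, A6 and B6 for PLZF- cells) whose meaning is not stated, and the labels do not say whether the pools of the 2 subsets share mice. The p-values below measure the spread between pools, not between single mice.

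In glycolysis, transporters let glucose in, hexokinases trap it by phosphorylation, phosphofructokinase-1 commits it to breakdown, and pyruvate kinase makes the last ATP and pyruvate. Pyruvate is then reduced to lactate, which leaves the cell with a proton, or is oxidised in the mitochondrion by pyruvate dehydrogenase, which its kinases switch off. In T cells the pathway is known to be raised on activation and growth, with hexokinase 2, the transporters of the SLC2A family and the M form of pyruvate kinase among the induced genes, and the hypoxia-inducible factors and MYC among the regulators.

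ZBTB16 itself had 2899 and 2921 normalized counts in PLZF+ libraries, against 310 and 699 in PLZF- libraries, so the sorted gene followed the labels. Without the rRNA precursor, the libraries held an estimated 1837511 and 2035066 reads in PLZF+ cells, against 744569 and 981885 in PLZF- cells, so low genes are less precise in the PLZF- libraries. Markers of other cells also differed between the subsets. The 5 T cell genes measured (CD3E, CD3G, CD3D, CD247 and TCRG-C3) were all called higher, with summed normalized counts of 6780 and 7393 in PLZF+ libraries, against 1969 and 2753 in PLZF- libraries. The 8 natural killer and innate lymphoid genes summed to 91.7 and 26.8 normalized counts in PLZF+ libraries, against 3701 and 3033 in PLZF- libraries, with 6 of 6 tested called lower. The 8 dendritic cell and MHC class II genes measured summed to 175 and 48 normalized counts in PLZF+ libraries, against 1793 and 817 in PLZF- libraries, with 5 of 8 called lower. Of 6 B and plasma cell genes 2 were tested: JCHAIN was called lower, at 0 in both PLZF+ libraries, against 584 and 257 normalized counts in PLZF- libraries. CD79B ran the other way without a call, at 33.4 and 29.6 normalized counts in PLZF+ libraries, against 1.69 and 7.32 in PLZF- libraries (adjusted p = 0.13). Macrophage, red cell, adipocyte, stromal and muscle lists summed to at most 41.5 normalized counts in any library. The stromal list summed to 22.3 and 2.79 normalized counts in PLZF+ libraries and was at 0 in both PLZF- libraries, with 7 of its 8 genes at 0 in every library. The adipocyte list summed to 13.6 and 5.02 normalized counts in PLZF+ libraries, against 23.6 and 15.9 in PLZF- libraries, most of it LIPE. Of 12 macrophage genes, 9 were listed at 0 in both PLZF+ libraries, 7 of them at 0 in every library. Endothelial genes summed to 160 and 156 normalized counts in PLZF+ libraries, against 113 and 117 in PLZF- libraries, most of it PECAM1, which was not called (adjusted p = 0.37). Cell cycle genes summed to 1260 and 1291 normalized counts in PLZF+ libraries, against 869 and 828 in PLZF- libraries, with 2 of 11 tested called higher (CDK1 and STMN1). PCNA and MCM5 had log2 fold changes below 0 (-0.19 and -0.21), without a call, and MCM5 and TYMS overlapped between the subsets. Of all tested genes, 2.48% were called higher and 4.97% lower. With limma run without its trend and robust options, 0 of the 5 T cell calls, 5 of the 6 natural killer calls, 1 of the 5 dendritic cell calls and 0 of the 2 cell cycle calls held. Some T cell calls were lost whichever single library was left out. Cell cycle calls were lost altogether without A7, B7 or A6 and in part without B6. Some natural killer calls were lost without A6 or B6. Dendritic cell calls were lost in part without B7 or B6 and altogether without A6, as was the JCHAIN call without A6. The part of these other cells and of cell cycling in the differences below was not tested. In bulk libraries fewer cells of a type and less RNA per cell cannot be told apart.

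Of the 28 tested genes, 3 rose in PLZF+ cells and 0 fell (limma, Benjamini-Hochberg adjusted p under 0.05 over all 9234 genes). The risers were HK2, PFKP and PKM, which encode enzymes at the 3 reactions of glycolysis usually described as irreversible. They make up 10.7% of the tested list, where 2.48% of all tested genes were called higher and 4.97% lower. At an unadjusted p under 0.05, 5 of the 28 were higher (17.9%), with ENO1 and PGK1 added, and 0 were lower, where 8.32% of all tested genes were higher and 12% lower. Both PLZF+ libraries lay above both PLZF- libraries for 11 of the 28 (39.3%), against 24.1% of all tested genes, and below them for 3 (10.7%), against 27.2%. The median log2 fold change was 0.20 over the 28 genes, with quartiles of -0.13 and 0.73, and -0.03 over all tested genes, with quartiles of -0.58 and 0.54. Compared library by library, the median of the 28 lay between 0.12 and 0.35. The list was chosen with earlier results of these data known, so these shares are a description and no test of the list was made. With 2 libraries a group, the smallest exact two-sided permutation p for a single gene is 0.333, so every call rests on a spread estimated across genes.

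**Figure D1:**
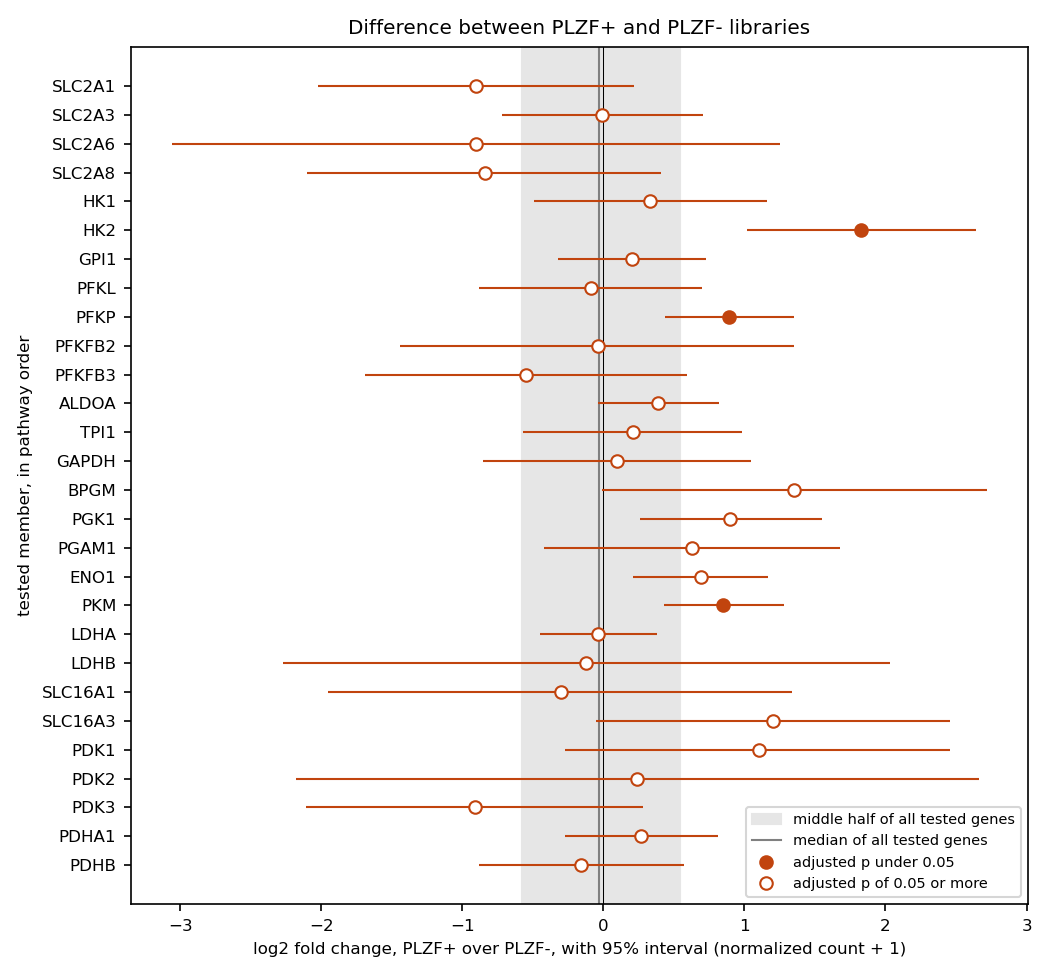
Log2 fold change of each of the 28 tested genes in PLZF+ over PLZF- libraries (n = 2 each), in pathway order, with its 95% interval from limma on log2(normalized count + 1). Filled points have an adjusted p under 0.05 (HK2, PFKP and PKM), and the grey band spans the quartiles of all tested genes, from -0.58 to 0.54.

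The DNA just upstream of the risers is shown because hypoxia-inducible factors and the E-box factors of the MYC family are textbook regulators of these genes. Each line gives the 250 bases before an annotated start in RefSeq (GRCm38.p6), 5′ to 3′ on the strand of the gene. Capitals mark CACGT, the reverse complement of ACGTG, a form of the core of the hypoxia response element. The other form of the core, GCGTG, was neither searched nor marked. The windows are chr6:82774455-82774704 on the minus strand for HK2, chr13:6648772-6649021 on the minus strand for PFKP, and chr9:59656326-59656575 and chr9:59656977-59657226 on the plus strand for the upstream and the downstream start of PKM.
HK2: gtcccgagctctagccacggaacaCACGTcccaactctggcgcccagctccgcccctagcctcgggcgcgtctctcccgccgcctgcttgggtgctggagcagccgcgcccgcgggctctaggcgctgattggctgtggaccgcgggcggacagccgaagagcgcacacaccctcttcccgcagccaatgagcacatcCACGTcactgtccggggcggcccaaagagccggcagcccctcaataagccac
PFKP: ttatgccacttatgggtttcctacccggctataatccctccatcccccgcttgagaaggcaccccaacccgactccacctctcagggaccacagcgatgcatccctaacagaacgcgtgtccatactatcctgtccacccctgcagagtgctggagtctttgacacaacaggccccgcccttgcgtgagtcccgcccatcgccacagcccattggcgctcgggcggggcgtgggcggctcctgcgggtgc
PKM, upstream start: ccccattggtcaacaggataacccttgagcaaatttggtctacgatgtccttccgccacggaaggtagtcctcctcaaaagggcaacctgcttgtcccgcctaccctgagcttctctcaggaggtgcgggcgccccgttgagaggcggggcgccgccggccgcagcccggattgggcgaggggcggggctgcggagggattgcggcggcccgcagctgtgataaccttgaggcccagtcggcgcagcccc
PKM, downstream start: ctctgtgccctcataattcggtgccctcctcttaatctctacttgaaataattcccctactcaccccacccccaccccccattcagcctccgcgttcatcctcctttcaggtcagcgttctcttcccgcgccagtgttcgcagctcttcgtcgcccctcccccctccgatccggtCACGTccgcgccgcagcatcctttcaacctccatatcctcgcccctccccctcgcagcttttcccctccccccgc

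The HK2 window holds ACGTG on the opposite strand at 2 places, whose first bases as printed lie at -226 and -52 from the start. The downstream PKM window holds 1 at -75, and the upstream PKM window and the PFKP window hold no ACGTG. The PFKP window does hold the other form, GCGTG, which was not counted. Over the whole list, 38 of 39 genes matched a RefSeq promoter, and 20 of their 58 windows (34.5%) hold ACGTG on either strand, against 5444 of 32851 windows of all genes (16.6%). Some genes have several windows, so windows are not independent. By gene, 16 of the 38 hold ACGTG, and the share by gene over all genes was not counted. The E-box CACGTG, which contains ACGTG, lies in 6 of the 58 windows (10.3%) and in 6.02% of all windows. Windows were not matched for base composition, which was 69.6% G and C for HK2. A match is a stretch of letters and not a bound site, and binding was not measured here.

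None of the 4 glucose transporter genes was called. The summed level of the 4 transporters was 51.4 and 59.9 FPKM in PLZF+ libraries, against 68.2 and 55.7 FPKM in PLZF- libraries, and the groups overlapped. SLC2A3 (GLUT3), a high-affinity glucose transporter, had the highest mean over the 4 libraries, at 32.8 and 39.1 FPKM in PLZF+ libraries, against 20.2 and 26.6 FPKM in PLZF- libraries. By FPKM both PLZF+ libraries were above both PLZF- libraries, but by normalized count they were 115 and 174 in PLZF+ libraries, against 133 and 151 in PLZF- libraries, and overlapped. The log2 fold change of SLC2A3 was accordingly -0.01 by normalized count and 0.61 by FPKM, neither of them called, and the cause of the difference between the tables was not tested. SLC2A1 (GLUT1), the transporter most often followed in activated T cells, had 8.37 and 6.84 FPKM in PLZF+ libraries, against 12.7 and 14.3 FPKM in PLZF- libraries. Its log2 fold change of -0.90 ± 0.51 (SE) missed the threshold (adjusted p = 0.36), with a 95% interval from -2.02 to 0.22. SLC2A8 (GLUT8), found on internal membranes, exceeded SLC2A3 in A6, at 28.2 FPKM. It was also lower in both PLZF+ libraries by normalized count, at 29.1 and 29.6, against 86.0 and 32.9 in PLZF- libraries, where A6 stood far above B6 (adjusted p = 0.45). Its log2 fold change of -0.84 was -0.16 without A6 and -1.52 without B6. SLC2A6 (GLUT6) overlapped between the subsets. By FPKM the make-up of the 4 transporters differed. SLC2A3 made up 63.8% and 65.4% of their summed FPKM in PLZF+ libraries, against 29.7% and 47.8% in PLZF- libraries. That is 25.9 percentage points more in PLZF+ cells, or 16.8 without A6. By normalized count the difference in share was smaller, at 15.3 points. The ratio of SLC2A3 to SLC2A1 was 3.92 and 5.72 by FPKM in PLZF+ libraries, against 1.59 and 1.86 in PLZF- libraries. By normalized count it was 3.32 and 7.07 in PLZF+ libraries, against 2.55 and 2.58 in PLZF- libraries, so the order of the subsets held in both tables.

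HK2, the inducible hexokinase that binds the mitochondrial surface, changed the most of the called genes. HK2 (chr6:82725025-82774454, minus strand, mm10) had 174 and 158 normalized counts in PLZF+ libraries, against 42.2 and 50 in PLZF- libraries. These counts stand for an estimated 281 and 284 reads in PLZF+ libraries, against 25 and 41 in PLZF- libraries. Every PLZF+ library was 3.17 to 4.13 times as high as every PLZF- library. On the log2 scale HK2 rose by 1.83 ± 0.37 (SE), with an adjusted p of 0.0095. In the authors' deposited Cuffdiff table HK2 had a q-value of 0.0181. HK1, the constitutive hexokinase, had 16.5 and 12.8 FPKM in PLZF+ libraries, against 13.7 and 10.3 FPKM in PLZF- libraries, and overlapped, with a log2 fold change of 0.33 ± 0.38 (adjusted p = 0.67). The ratio of HK2 to HK1 was 1.14 and 1.58 by FPKM in PLZF+ libraries, against 0.399 and 0.603 in PLZF- libraries. HK2 was thus the more abundant of the pair in each PLZF+ library and HK1 in each PLZF- library by FPKM. As a ratio of normalized counts it was 1.54 and 1.78 in PLZF+ libraries, against 0.463 and 0.719 in PLZF- libraries. HK3, the hexokinase of myeloid cells, was listed at 0 in both PLZF+ libraries, where PLZF- libraries had an estimated 7 and 4 reads. The PLZF- mean of HK3 was 4.72 times a floor of 3 reads per library in PLZF+ cells, and 2.76 times without A6. This figure does not cover the counting error of the few PLZF- reads. HK3 was too low to test, and limma without the filter gave an adjusted p of 0.23. All hexokinases together reached 35.3 and 33.0 FPKM in PLZF+ libraries, against 21.7 and 17.5 FPKM in PLZF- libraries.

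Glucose-6-phosphate isomerase, the reversible step after hexokinase, overlapped between the subsets. GPI1 had 80.9 and 99.9 FPKM in PLZF+ libraries, against 92.6 and 67.4 FPKM in PLZF- libraries, with a log2 fold change of 0.20 ± 0.24 (adjusted p = 0.69). Phosphofructokinase-1, the committing step, was higher through its platelet-type subunit. PFKP (chr13:6579768-6648777, minus strand, mm10) had 610 and 657 normalized counts in PLZF+ libraries, against 359 and 323 in PLZF- libraries. The groups did not overlap, and the log2 fold change was 0.89 ± 0.21 (adjusted p = 0.021), while its q-value in the authors' deposited Cuffdiff table was 0.216. The deposited locus of PFKP also carries the name AK043676, and its reads cannot be told apart from those of PFKP. The liver-type subunit PFKL had 89.8 and 89.8 normalized counts in PLZF+ libraries, against 103 and 89.0 in PLZF- libraries, with a log2 fold change of -0.09 ± 0.36 (adjusted p = 0.92). PFKP made up 82.3% and 87.1% of phosphofructokinase-1 FPKM in PLZF+ libraries, against 74.2% and 74.6% in PLZF- libraries. PFKM, the muscle-type subunit, was too low to test, at 20 estimated reads in PLZF+ libraries and 13 in PLZF- libraries.

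**Figure D2:**
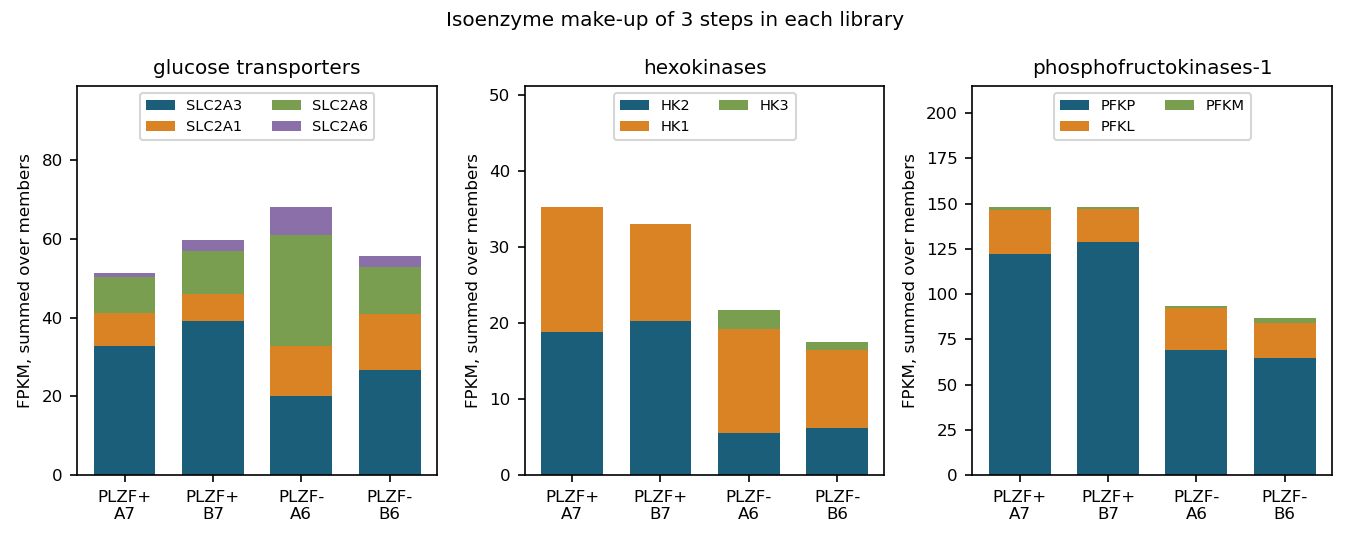
FPKM of the glucose transporters, hexokinases and phosphofructokinase-1 subunits, stacked by gene, in each of the 4 libraries (PLZF+ A7 and B7, PLZF- A6 and B6). HK2 takes 53.3% and 61.2% of the hexokinase bar in PLZF+ libraries, against 25.2% and 35.6% in PLZF- libraries, while the transporter bars overlap in height.

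The bifunctional enzymes that make and remove the activator of phosphofructokinase-1 did not follow PFKP. PFKFB3, the form with the highest ratio of kinase to phosphatase activity, led this step with 8.62 and 7.44 FPKM in PLZF+ libraries, against 13.1 and 9.09 FPKM in PLZF- libraries. By normalized count PFKFB3 overlapped between the subsets, and its log2 fold change was -0.55 ± 0.53 (adjusted p = 0.61). PFKFB2 overlapped at -0.04 ± 0.64. PFKFB1 had 5 estimated reads in each subset and PFKFB4 had 1 in all. FBP1, which runs the phosphofructokinase step backwards in gluconeogenesis, was listed at 0 in every library.

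From aldolase to the triose phosphates no difference was called. ALDOA, the main aldolase outside liver and brain, had 324 and 340 FPKM in PLZF+ libraries, against 262 and 276 FPKM in PLZF- libraries. The groups did not overlap, but its log2 fold change of 0.39 ± 0.20 missed the threshold (adjusted p = 0.29), and its locus also carries the name GM15676. ALDOC, the brain-type aldolase, had 47 estimated reads in PLZF+ libraries, against 5 in PLZF- libraries. It was higher in both PLZF+ libraries but too low to test. TPI1, triose-phosphate isomerase, had 46.8 and 46.8 FPKM in PLZF+ libraries, against 47.8 and 35.4 FPKM in PLZF- libraries, and overlapped (adjusted p = 0.79). GAPDH, which starts the payoff phase, had 58.8 and 62.5 normalized counts in PLZF+ libraries, against 50.6 and 63.4 in PLZF- libraries, a log2 fold change of 0.10 ± 0.44 (adjusted p = 0.93). By FPKM its sign was the other way, at 74.8 and 60.7 FPKM in PLZF+ libraries, against 79.8 and 97.4 FPKM in PLZF- libraries, also not called. GAPDH and several other enzymes of the list have many processed copies in the mouse genome, so reads shared with copies make these counts uncertain.

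In the lower part of the pathway, phosphoglycerate kinase, enolase and pyruvate kinase were higher in both PLZF+ libraries. PGK1, the first ATP-making step, had 201 and 246 normalized counts in PLZF+ libraries, against 115 and 122 in PLZF- libraries. Its log2 fold change was 0.90 ± 0.29, with an adjusted p of 0.096. BPGM, which diverts an intermediate into a side loop, had 13.7 and 14.3 FPKM in PLZF+ libraries, against 7.95 and 3.52 FPKM in PLZF- libraries, from 15 and 9 estimated reads in PLZF- libraries (1.35 ± 0.63 on the log2 scale, adjusted p = 0.25). PGAM1, phosphoglycerate mutase, had 25.3 and 20.8 FPKM in PLZF+ libraries, against 19.0 and 11.6 FPKM in PLZF- libraries (adjusted p = 0.50). The groups of PGAM1 did not overlap, although the lowest PLZF+ and the highest PLZF- library were close. PGAM2, the muscle form, had 3 estimated reads in PLZF+ libraries and 2 in PLZF- libraries.

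ENO1, the ubiquitous enolase, had 595 and 723 normalized counts in PLZF+ libraries, against 359 and 460 in PLZF- libraries. Single pairs of libraries differed by 1.29 to 2.01 times, and the log2 fold change was 0.69 ± 0.22 (adjusted p = 0.091). ENO1 took 99.1% and 99.6% of enolase FPKM in PLZF+ libraries, against 92.4% and 96.5% in PLZF- libraries, a difference of 4.91 percentage points that was 2.9 without A6. The neuronal form ENO2 was listed at 0 in both PLZF+ libraries and in B6, with 4 estimated reads in A6, and the muscle form ENO3 had 11 reads in PLZF+ libraries and 13 in PLZF- libraries. PKM (chr9:59656368-59679375, plus strand, mm10), pyruvate kinase of non-liver tissues, was the most abundant of the called genes. It had 931 and 931 normalized counts in PLZF+ libraries, against 476 and 557 in PLZF- libraries. Its log2 fold change was 0.85 ± 0.19 (adjusted p = 0.018), and the q-value in the authors' deposited Cuffdiff table was 0.0503. The tables are per gene, so its M1 and M2 splice forms were not separated here. PKLR, the liver and red cell pyruvate kinase, was listed at 0 in every library.

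**Figure D3:**
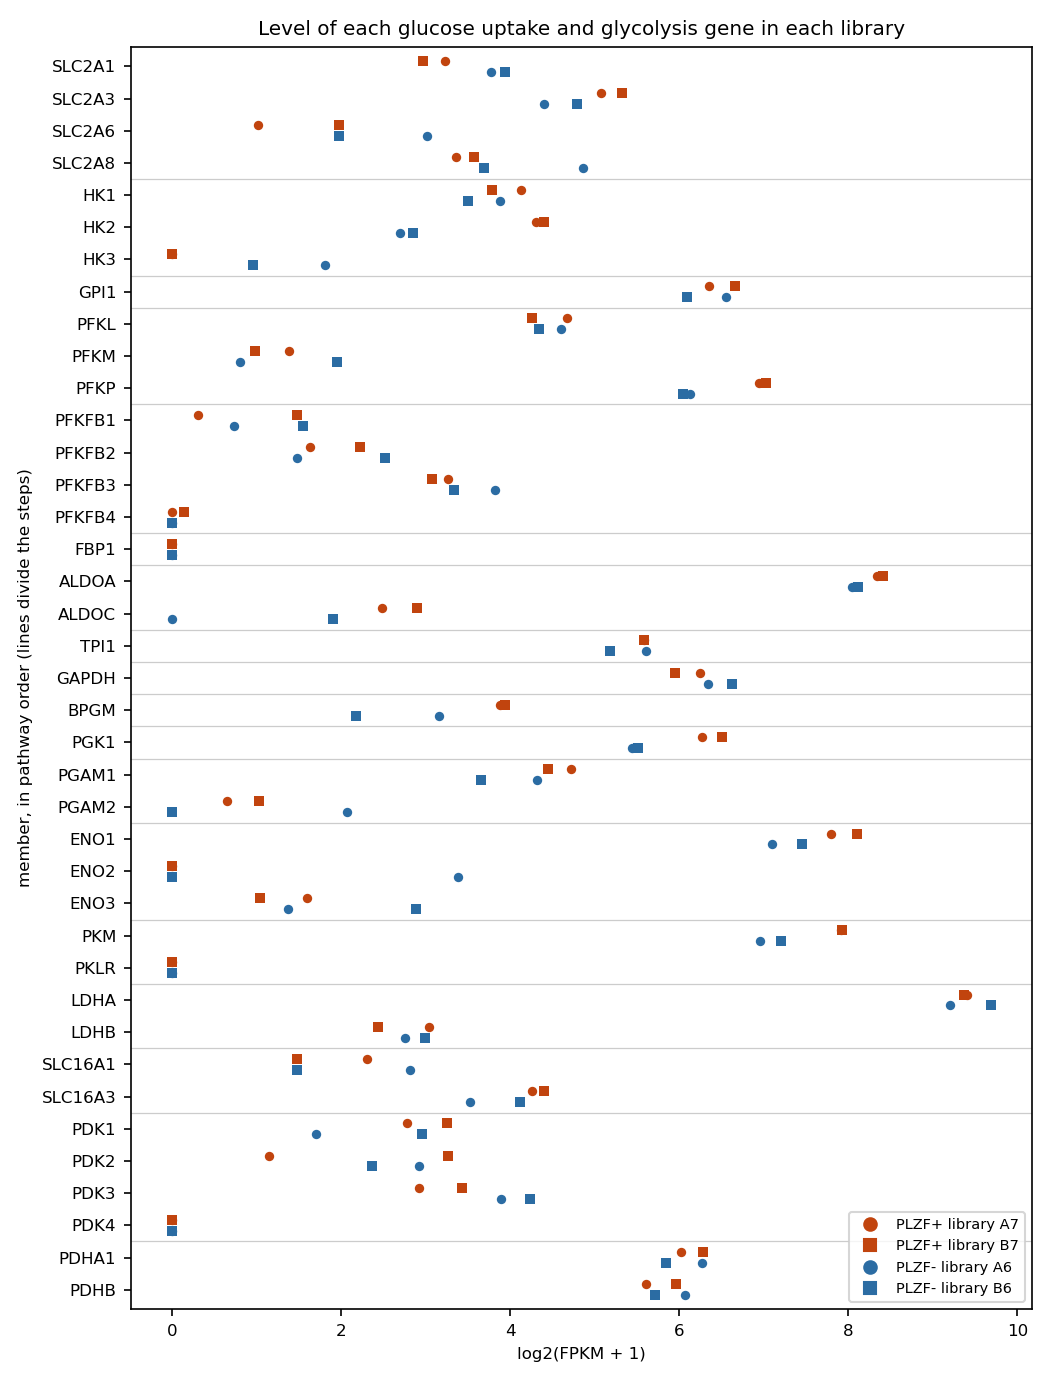
Level of each of the 39 genes in each library, as log2(FPKM + 1), in pathway order from glucose transporters to pyruvate dehydrogenase, with PLZF+ libraries drawn above PLZF- libraries. By their mean over the 4 libraries LDHA, ALDOA, ENO1, PKM and PFKP lie highest, and FBP1, PKLR and PDK4 lie at 0 in every library. HK2, PFKP, PGK1, ENO1 and PKM are among the genes higher in both PLZF+ libraries. SLC2A1, SLC2A8, HK3, PFKFB3, GAPDH and PDK3 are lower in both.

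At the branch to lactate no difference was called. LDHA, which favours lactate formation, was the most abundant gene of the list, with 674 and 661 FPKM in PLZF+ libraries, against 588 and 824 FPKM in PLZF- libraries, and a mean FPKM above that of 99.2% of tested genes. Its 2 deposited rows were summed, and the log2 fold change was -0.04 ± 0.19 (adjusted p = 0.94), with a 95% interval from -0.45 to 0.38. The intervals of LDHA and PKM therefore did not overlap, since that of PKM ran from 0.43 to 1.28, but the difference between the 2 genes was not itself tested. LDHB, which favours the reverse reaction, made up 1.06% and 0.664% of lactate dehydrogenase FPKM in PLZF+ libraries, against 0.968% and 0.841% in PLZF- libraries. SLC16A3 (MCT4), a lactate exporter, had 82.4 and 83.7 normalized counts in PLZF+ libraries, against 18.6 and 67.1 in PLZF- libraries. The groups did not overlap, but A6 lay far below B6, and the log2 fold change of 1.2 ± 0.58 missed the threshold (adjusted p = 0.27). It was 0.30 without A6, 2.10 without B6 and 0.52 by FPKM. SLC16A1 (MCT1), which carries lactate in either direction, overlapped at -0.30 ± 0.76.

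The mitochondrial gate showed no called difference either. Of the kinases that switch pyruvate dehydrogenase off, PDK3 was the most abundant, with 6.6 and 9.83 FPKM in PLZF+ libraries, against 13.8 and 17.9 FPKM in PLZF- libraries. It was lower in both PLZF+ libraries (-0.91 ± 0.55 on the log2 scale, adjusted p = 0.39). PDK1, the hypoxia-inducible kinase, was higher in both, at 5.86 and 8.54 FPKM in PLZF+ libraries, against 2.25 and 6.79 FPKM in PLZF- libraries (1.10 ± 0.63, adjusted p = 0.36), a log2 fold change that was 0.30 without A6. PDK2 overlapped, with 7 and 55 estimated reads in the PLZF+ libraries themselves, and PDK4 was listed at 0 in every library. The catalytic subunit PDHA1 had 287 and 342 normalized counts in PLZF+ libraries, against 285 and 235 in PLZF- libraries (0.27 ± 0.25, adjusted p = 0.59). By FPKM the PDHA1 groups overlapped, and its partner PDHB overlapped by both measures.

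Set end to end, the summed FPKM of 8 of 18 steps was higher in both PLZF+ libraries and that of 2 was lower. Of all tested genes taken singly, 23.2% were higher in both PLZF+ libraries by FPKM and 27.1% were lower. Of the 10 steps from hexokinase to pyruvate kinase, 6 were higher (hexokinase, phosphofructokinase-1, aldolase, phosphoglycerate kinase, enolase and pyruvate kinase), 1 was lower (GAPDH) and 3 overlapped. Their sum was 1280 and 1362 FPKM in PLZF+ libraries, against 931 and 966 FPKM in PLZF- libraries, a ratio of means of 1.39. By step, the ratio of mean FPKM in PLZF+ over PLZF- libraries was 1.74 for hexokinase, 1.64 for phosphofructokinase-1, 1.25 for aldolase, 1.90 for phosphoglycerate kinase, 1.52 for enolase and 1.80 for pyruvate kinase. It was 0.764 for GAPDH and 0.765 for phosphofructokinase-2, both lower in each PLZF+ library. It was 0.898 for glucose transport and 0.945 for lactate dehydrogenase, where the groups overlapped. These are sums of a few genes over 2 libraries a group and carry no test. Without the rRNA precursor, FPKM over all genes totalled 672842 in A7 and 440947 in B7, against 415428 in A6 and 431274 in B6. The sums were not scaled to these totals, and the order of the libraries depends on that choice.

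**Figure D4:**
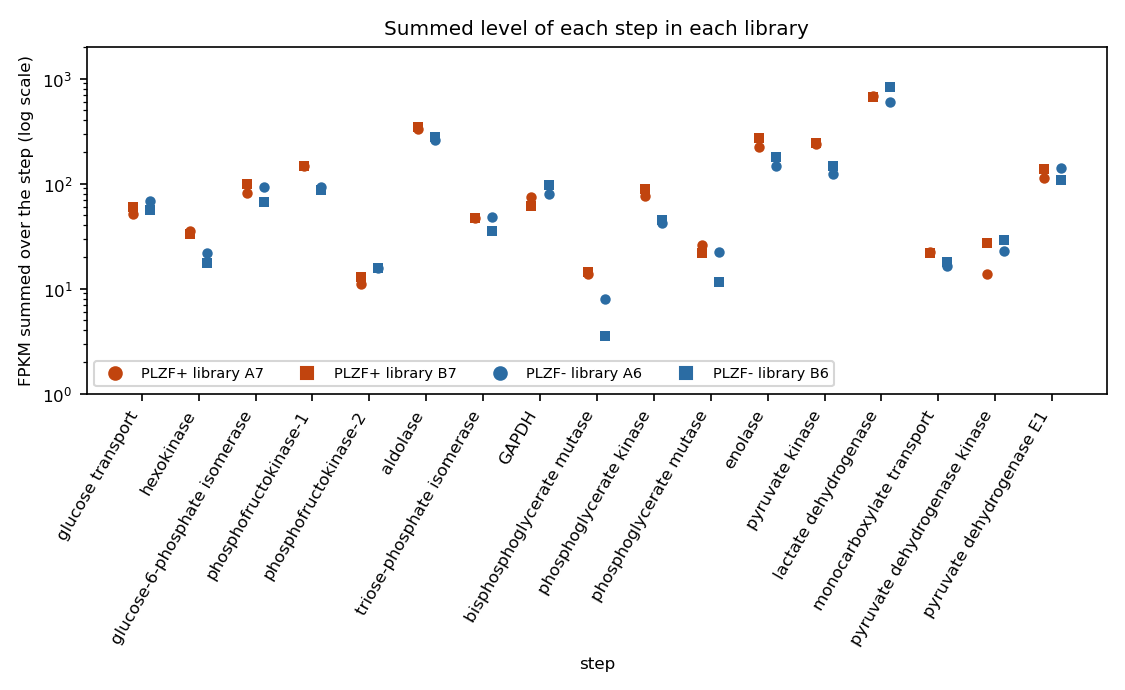
Summed FPKM of the genes at each step in each library, on a log axis, in pathway order, with PLZF+ libraries left of PLZF- libraries (fructose bisphosphatase, at 0 in every library, is not drawn). Hexokinase, phosphofructokinase-1, aldolase, bisphosphoglycerate mutase, phosphoglycerate kinase, enolase, pyruvate kinase and monocarboxylate transport lie higher in both PLZF+ libraries.

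Over 6 lists of 114 further genes of the neighbouring pathways and their regulators, 112 were measured, 80 were tested, 1 rose (1.25%) and 2 fell (2.5%). Of all tested genes 2.48% were called higher and 4.97% lower. None of the 9 tested transporters and branch enzymes, 8 pyruvate entry genes, 10 pentose phosphate genes, 15 glycogen and sugar-nucleotide genes or 12 serine, glycerol phosphate and shuttle genes was called by limma. At an unadjusted p under 0.05, EMB and GALM of the first of these lists were higher and UGP2, PYGL and GFPT1 of the glycogen and sugar-nucleotide list were lower. EMB, a partner of some monocarboxylate transporters, had 5191 and 5069 normalized counts in PLZF+ libraries, against 3399 and 3861 in PLZF- libraries (0.50 ± 0.14, adjusted p = 0.056). All 3 calls were among the 26 tested regulators, of which 3.85% rose and 7.69% fell. EPAS1, a hypoxia-inducible factor subunit, had 159 and 165 normalized counts in PLZF+ libraries, against 45.5 and 65.9 in PLZF- libraries (1.55 ± 0.37, adjusted p = 0.024). MLXIP, a glucose-sensing E-box factor, had 70.6 and 83.7 normalized counts in PLZF+ libraries, against 299 and 180 in PLZF- libraries (-1.58 ± 0.35, adjusted p = 0.015). BHLHE40, an E-box repressor induced on T cell activation, had 450 and 292 normalized counts in PLZF+ libraries, against 725 and 699 in PLZF- libraries (-0.97 ± 0.24, adjusted p = 0.027). MTOR and IRF4 were higher and RPTOR lower at an unadjusted p under 0.05 (adjusted p = 0.23, 0.20 and 0.23). IRF4 had 88.6 normalized counts in A7 but 14 in B7, against 8.44 and 6.1 in PLZF- libraries. MTOR had 92.9 and 71.4 normalized counts in PLZF+ libraries, against 16.9 in A6 and 59.8 in B6. MYC was lower without a call, at 40.9 and 33.5 normalized counts in PLZF+ libraries, against 142 and 50 in PLZF- libraries (-1.17 ± 0.54, adjusted p = 0.25). HIF1A overlapped between the subsets (-0.45 ± 0.28, adjusted p = 0.39). None of the 3 regulator calls held when limma was run with neither its trend nor its robust option (adjusted p = 0.16 for EPAS1, 0.18 for MLXIP and 0.33 for BHLHE40). Leaving out 1 library took each of them as high as 0.30 for EPAS1, 0.18 for MLXIP and 0.43 for BHLHE40.

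The calls of all 3 glycolytic genes needed both PLZF+ libraries and A6, and that of PFKP also needed B6. HK2 lost its call without A7 (adjusted p = 0.20), B7 (0.16) or A6 (0.075) and kept it without B6 (0.039). PKM lost it without A7 (0.27), B7 (0.28) or A6 (0.099) and kept it without B6 (0.038). PFKP lost it without any single library (0.073 to 0.32). All 3 lost it in the FPKM table (0.090 for HK2, 0.066 for PKM and 0.080 for PFKP) and when limma used neither its trend nor its robust option (0.099, 0.33 and 0.31). When low genes were not filtered out, HK2 kept it (0.039) and PKM (0.057) and PFKP (0.065) did not. With the libraries thinned to the depth of the shallowest, all 3 kept it, at an adjusted p of 0.0059 for HK2, 0.019 for PKM and 0.026 for PFKP. Their log2 fold changes stayed between 1.59 and 2.08 for HK2, 0.74 and 0.97 for PKM, and 0.82 and 1.01 for PFKP in every setting run. With the letter of the column code as a term, ENO1 (0.016) and PGK1 (0.045) were called as well.

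**Figure D5:**
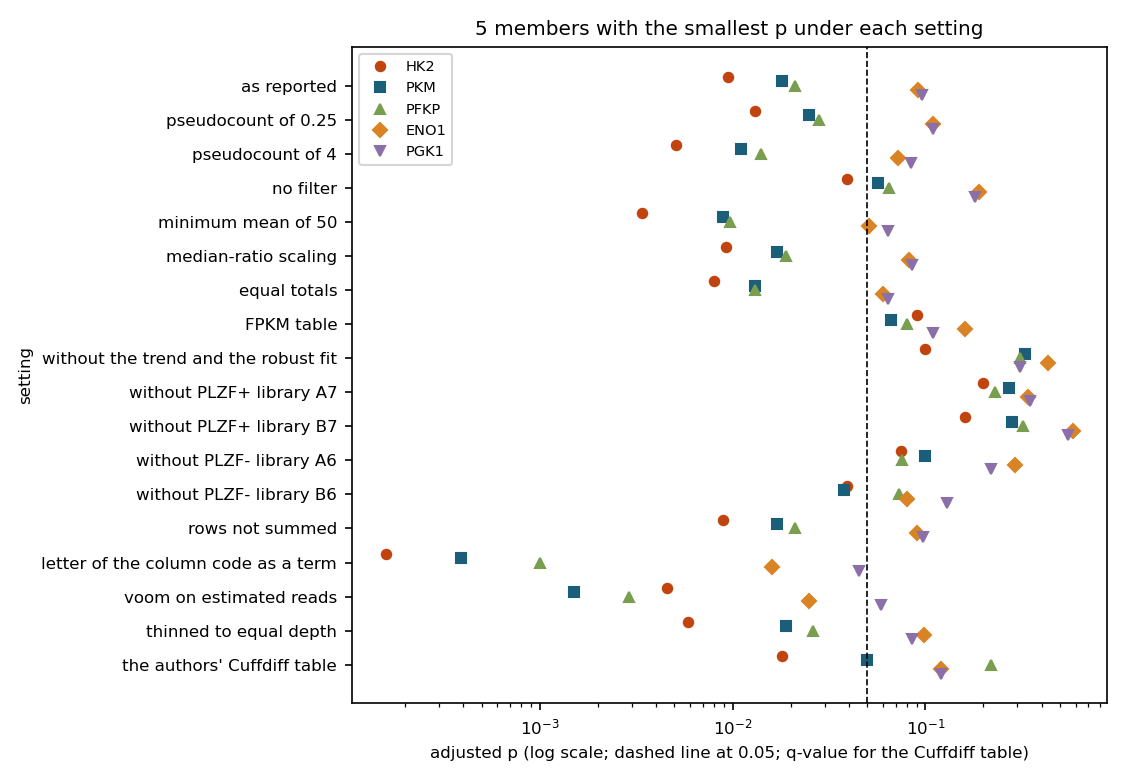
Adjusted p of HK2, PKM, PFKP, ENO1 and PGK1 under each setting, on a log axis, with the threshold of 0.05 dashed (the q-value for the authors' deposited Cuffdiff table). HK2 lies left of the others in most settings, and all 5 lie right of the threshold in the FPKM table, with the plain limma fit, and without A7, B7 or A6.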

How the data were processed

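RNA of 2 PLZF+ and 2 PLZF- pools of γδ T cells was sequenced after SMART-seq2, per the labels' protocols. Per the submitters' processing notes, processing used mm10, HISAT 0.1.6, SAMtools 1.2, Cufflinks 1.2 and Cuffdiff. Neither the annotation nor the strandedness of the counting is stated, so overlapping and antisense genes cannot be told apart. The authors deposited Cuffnorm tables of 46799 rows with normalized counts, a signal that is divided by a factor per library and is not raw counts, and with FPKM. They also deposited a Cuffdiff table, from which the q-value was used, while its log2 fold change was computed from the deposited FPKM means.

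Rows kept their deposited names, and overlapping rows of a symbol were summed (561 genes). Listed genes were found by symbol or synonym, and their loci had to overlap the gene in GENCODE M21 on GRCm38. For ENO1, a second row of that name elsewhere was not added. The rRNA precursor took 28.1% of A7, 0% of B7, 26.8% of A6 and 33.2% of B6, and was left out. Values lay on steps of 0.558 to 1.69 normalized counts, the worth of 1 read, and 94% to 95.7% were within 0.05 of a whole read. Estimated reads are values divided by that step, and the floor is 3 reads per library.

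Genes with a mean of at least 10 were tested two-sided on log2(normalized count + 1) with limma 3.58.1 (R 4.3.3), using its trend and robust options. P-values were adjusted by Benjamini-Hochberg and called under 0.05. This scale understates the change of low genes. Levels of different genes were compared by FPKM. Named genes are all 39, with values per library for those called and the most abundant at each step, and in the other lists up to 4 called genes with the smallest p. Other genes named were chosen after their values were seen. The members and lists were chosen with earlier results of these data known. Tables and figures used Python 3.11.15, pandas 2.3.3, numpy 2.4.6 and matplotlib 3.10.9.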

Additional observations from a re-analysis of the deposited data

How the results depend on the processing

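With 2 libraries a group, leaving out 1 leaves a lone library that is assumed to vary like the others, and PLZF- libraries are the shallower. The number of the 39 genes called higher in PLZF+ cells was 3 as reported, 1 without a filter, 0 in the FPKM table, 0 without the trend and the robust fit, 1 in the authors' deposited Cuffdiff table, 5 with the letter of the column code as a term and 0 to 2 with a library left out. None was called lower by limma, where 0 had an unadjusted p under 0.05, or in the Cuffdiff table. Over all genes, calls higher numbered 229 as reported, 108 without a filter, 26 without the trend and the robust fit, 426 with the letter, 140 in the Cuffdiff table and 22 to 224 with a library left out. Calls lower numbered 459 as reported, and 277, 179, 690, 241 and 95 to 273 in the same order. The median log2 fold change of the genes tested was 0.20 as reported, 0.05 without a filter, 0.30 with a minimum mean of 50, 0.31 with equal totals, 0.30 with voom on estimated reads and 0.16 to 0.30 with a library left out. The share of ENO1 among the enolases differed by 4.91 percentage points by FPKM and 2.27 by normalized counts, and that of SLC2A3 among the transporters by 25.9 and 15.3. With a library left out these were 2.9 to 6.91 and 16.8 to 34.9 points by FPKM. The share of LDHB differed by -0.0414 points, and by -0.24 to 0.157 with a library left out.

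HK2, PFKP and PKM changed sign in no setting run. Of genes not called, SLC2A3 (-0.01 as reported) was 0.03 with median-ratio scaling, 0.10 with equal totals and with voom, 0.61 in the FPKM table, 0.62 from Cuffdiff, 0.18 thinned and -0.30 to 0.29 with a library left out (above 0 without A7 or, at 0.08, without B6). PFKL (-0.09) was 0.02 with equal totals and voom, 0.16 thinned, 0.01 from Cuffdiff and -0.19 to 0.01 with a library left out. PFKFB2 (-0.04) was 0.06 with equal totals, 0.16 thinned and 0.22 or 0.35 without A7 or B6. LDHA (-0.04) was 0.07 with equal totals, 0.05 with voom, 0.03 thinned and -0.25 to 0.17 with a library left out. GAPDH (0.10) was -0.38 in the FPKM table, -0.39 from Cuffdiff, -0.14 thinned and -0.06 to 0.26 with a library left out. PDK2 (0.24) was -0.44 in the FPKM table, -0.13 from Cuffdiff, -0.27 thinned and -1.04 to 1.53 with a library left out. With a single library left out, the sign also turned for SLC2A6 (-1.84 to 0.03), PFKFB3 (-1.13 to 0.03), GPI1 (-0.02 to 0.43), TPI1 (-0.02 to 0.43), LDHB (-0.46 to 0.21), SLC16A1 (-1.15 to 0.54) and PDHB (-0.43 to 0.12). The cause of these changes was not tested. No paired analysis was possible because the table columns carry no replicate number. The letter of the column code as a term sets A7 beside A6 and B7 beside B6, and no label says that the letters mark pairs. The planned count model was not run because the steps did not give whole reads for nearly all values. Both pseudocounts, median-ratio scaling and rows not summed left the 3 calls in place. Voom and thinning were added after seeing the data.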
